A study of Rattus norvegicus with 20 samples.

Results

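The slow-fibre contractile genes are 10 genes of the slow (type I) muscle fibre and its sarcomere, chosen by gene symbol from the 32495 named gene rows of the count table: Myh7, Myh6, Myl2, Myl3, Tnnt1, Tnni1, Tnnc1, Tpm3, Atp2a2 and Myoz2. All 10 symbols had a row, and all 10 were among the 11716 genes with enough counts to be tested. Gastrocnemius muscle came from female Fischer 344 rats that all carried the Ward colorectal carcinoma, a transplanted rat tumour. It grew for 2 weeks before the day on which chemotherapy began. TUMOUR STD rats stayed on the standard diet without chemotherapy (5 libraries). The day on which their muscle was taken is not stated separately in the sources used here. CHEMO STD rats stayed on the standard diet and received 2 cycles of CPT-11 (irinotecan) and then 5-FU (5-fluorouracil, 50 mg/kg), with muscle taken 7 days after the last cycle (7 libraries). CHEMO FO rats received the same chemotherapy and were moved to a fish oil diet rich in EPA and DHA when it began (8 libraries). No group without a tumour was sequenced here, the age of the rats is given in the methods without a unit, and the part of the muscle that each piece came from is not given in the sources used here.

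Skeletal muscle mixes slow fibres, which contract slowly, resist fatigue and use oxidative metabolism, with fast fibres that contract quickly and use more glycolysis. Most parts of the contractile machinery exist as a slow and a fast version encoded by separate genes, and a nerve's firing pattern, calcineurin signalling and factors such as MEF2 help to keep the slow versions on. The gastrocnemius of the rat is a mainly fast muscle with a smaller slow portion. Among the members, Myh7 encodes the slow myosin heavy chain, and its neighbour Myh6 encodes the alpha heavy chain known from heart. Myl2 and Myl3 encode the slow regulatory and essential light chains of myosin. Tnnt1, Tnni1 and Tnnc1 encode the slow troponin subunits that bind tropomyosin, inhibit contraction and sense calcium, and Tpm3 encodes slow tropomyosin. Atp2a2 encodes the slow calcium pump of the sarcoplasmic reticulum (SERCA2), and Myoz2 a Z-disc protein of slow fibres that binds calcineurin.

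The counted reads ranged from 3020821 to 10857477 per library. The libraries CHEMO STD 1 and 2 differed far less than any other pair of one group (chi-square 2.23 per well-counted gene, where the other 58 pairs had 13.7 to 255). Their counts were summed and taken as 1 sample, so that CHEMO STD had 6 samples and the comparisons 19. For the members, the ratio of replicate 2 to replicate 1 in CPM ran from 0.930 for Atp2a2 to 1.12 for Myh6. The labels do not say that each library is a separate rat, so p-values measure the spread between these samples. The 10 members took 0.850% to 1.62% of a sample's counts in TUMOUR STD, 0.690% to 1.20% in CHEMO STD and 0.577% to 1.56% in CHEMO FO. The fast myosin heavy chain gene Myh4 was the reference point for a fast muscle, at 99587 ± 4236 CPM in TUMOUR STD (SD, n = 5), where CPM is a gene's counts scaled to a common normalised library size. Of 7 genes listed as heart-restricted, Nppa, Nppb and Myl7 were at 0 counts in all libraries. The 7 together ran from 2.45 to 10.7 CPM per sample, with Gja5 the highest at 2.45 to 10.3 CPM.

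Promoter sequences are shown for the 3 members that passed the thresholds below (Myh7, Myh6 and Atp2a2) and for Tnnt1. Tnnt1 was added because it varied closely with the thin-filament genes Tnnc1 and Tpm3. Each is the RefSeq sequence of rat build GRCr8 from 250 bases before to 50 bases after the annotated start, printed 5′ to 3′ on the gene's strand, and the count table itself was made on the older build Rnor 6. Capitals mark any of 6 motifs found by letters on either strand, which do not overlap here. The E-box was searched as the letters CANNTG. The letters CATTCC stood for the M-CAT element, to which TEAD factors bind. A MEF2 site was read from its core TAAAAATA and a promoter box of the general machinery from TATAAA. The last motifs were the SRF CArG box, searched by its usual pattern, and a site of GATA factors, read from the letters AGATAA. Myh7 lies at chr15:32438145-32438444 on the minus strand, Myh6 at chr15:32411648-32411947 on the minus strand, Atp2a2 at chr12:39733269-39733568 on the plus strand and Tnnt1 at chr1:78348785-78349084 on the plus strand.
Myh7: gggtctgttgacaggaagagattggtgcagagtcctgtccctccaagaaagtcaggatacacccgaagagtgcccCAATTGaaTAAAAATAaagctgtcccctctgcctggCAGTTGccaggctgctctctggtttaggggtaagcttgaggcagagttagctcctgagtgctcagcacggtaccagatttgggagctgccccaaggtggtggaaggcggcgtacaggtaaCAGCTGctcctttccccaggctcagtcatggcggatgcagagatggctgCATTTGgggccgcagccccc
Myh6: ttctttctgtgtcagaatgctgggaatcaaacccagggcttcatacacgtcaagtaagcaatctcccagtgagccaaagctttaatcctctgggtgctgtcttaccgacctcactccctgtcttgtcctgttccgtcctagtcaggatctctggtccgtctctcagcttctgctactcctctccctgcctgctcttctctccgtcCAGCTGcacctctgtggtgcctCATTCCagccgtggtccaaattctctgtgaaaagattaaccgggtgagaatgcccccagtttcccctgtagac
Atp2a2: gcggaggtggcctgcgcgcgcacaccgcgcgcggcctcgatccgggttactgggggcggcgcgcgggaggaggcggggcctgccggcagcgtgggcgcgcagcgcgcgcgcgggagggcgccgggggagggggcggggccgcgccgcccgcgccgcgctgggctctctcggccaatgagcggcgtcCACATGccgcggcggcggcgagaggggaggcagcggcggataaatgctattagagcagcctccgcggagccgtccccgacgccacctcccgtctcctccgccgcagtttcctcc
Tnnt1: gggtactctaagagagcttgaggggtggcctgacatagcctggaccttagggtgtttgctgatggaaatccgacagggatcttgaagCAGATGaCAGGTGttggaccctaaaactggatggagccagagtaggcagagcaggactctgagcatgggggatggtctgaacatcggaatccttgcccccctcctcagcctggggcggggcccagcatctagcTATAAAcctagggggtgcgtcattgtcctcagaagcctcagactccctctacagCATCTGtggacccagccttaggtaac

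The Myh7 promoter held the MEF2 core at position -167, counted from the start, and it was the only one of the 10 promoters of members with it. These 10 promoters belong to 8 of the 10 members, Tpm3 having 3. That motif is in 2.69% of all 33469 promoters of the same length. An E-box, the letters that myogenic factors bind, was in all 10 promoters but also in 72.1% of all promoters. The Myh6 promoter held an M-CAT element at position -23 and Tnnt1 the TATAAA box at position -30, motifs present in 14.2% of all promoters each. The SRF CArG box, in 1.64% of all promoters, was found in that of Myl3, which also held M-CAT elements. The Atp2a2 promoter carried none of these but 1 E-box at position -64. Myh6 and Myh7 are next to each other on chromosome 15 with 0 protein-coding genes between them. A match is a run of letters and no evidence of binding. Whether each annotated start is where transcription begins was not tested, so the bases before it may not be the promoter in use. In Myh7 the letters atg stand between the start and the E-box at position 31, which may be coding sequence.

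The chemotherapy effect, CHEMO STD against TUMOUR STD, was the first comparison of the study. All 10 slow-fibre genes had lower fitted values in CHEMO STD. Their median log2 fold change was -0.44, against -0.0016 over the 11716 genes tested, of which 50.3% were lower. The members varied together from sample to sample, as described below, so these 10 are not independent observations. A gene was called when its unadjusted p was below 0.05 and its change at least 1.5-fold, the thresholds of the study's methods. In edgeR's quasi-likelihood test 3 members were called lower (Myh7, Myh6 and Atp2a2), where 1.45% of all genes tested were called lower. At p below 0.05 whatever the fold, 4 of 10 members were lower, Myl3 added, where 3.83% of all genes were. The study had already reported lower Myh6 and Myh7 in this comparison. Since the members and the gene lists below were chosen with earlier results of these data known, such counts beside the shares are a description only. No member passed after Benjamini-Hochberg adjustment over all genes in edgeR (smallest adjusted p 0.719), and neither did any other gene (smallest 0.652), although 762 genes had an unadjusted p below 0.05. Beside these genes, markers of other cell types were also lower in CHEMO STD. The summed smooth muscle markers ran from 233 to 329 CPM in TUMOUR STD and from 157 to 250 in CHEMO STD, with 6 of 6 tested lower and 4 called. The summed tendon markers ran from 705 to 1842 CPM and from 408 to 1344, with 8 of 8 lower and 4 called. The summed sample of CHEMO STD replicates 1 and 2 was highest of its group for tendon markers (1344 CPM, median 513) and Schwann cell markers (455 CPM, median 137). Without it 603 genes were called in this comparison, beside 279 with it. The part of these markers in the slow-fibre result was not tested, and in whole muscle fewer slow fibres and less RNA per slow fibre cannot be told apart.

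Among the myosin heavy chains, Myh7, the gene most used to mark slow fibres, was at 6463, 7385, 9609, 3415 and 7166 CPM in TUMOUR STD replicates 8 to 12. In CHEMO STD it ran from 2713 (median 3522) to 4735 CPM. Of the TUMOUR STD samples, 4 of 5 lay above every CHEMO STD sample, and replicate 11 lay inside the CHEMO STD range, so the groups overlapped. The mean was 6808 ± 2232 CPM in TUMOUR STD (SD, n = 5) and 3549 ± 720 CPM in CHEMO STD (SD, n = 6), a fitted 1.92-fold lower level, log2 fold change -0.94 (SE 0.277, unadjusted p = 0.00255 and adjusted p = 0.719 by edgeR). A two-sided exact permutation test of log2 CPM over 462 arrangements gave p = 0.0216 (adjusted 0.162 over 30 tests of the members). By p value Myh7 ranked 26 of 11716 genes in edgeR. Leaving out each sample in turn kept the call, with log2 fold changes from -1.11 (TUMOUR STD replicate 11 removed) to -0.78 (TUMOUR STD replicate 10 removed).

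Myh6 was at 134, 137, 159, 77.7 and 137 CPM in TUMOUR STD replicates 8 to 12, and at 64.3 (median 77.7) to 102 CPM in CHEMO STD. Again 4 of 5 TUMOUR STD samples were above every CHEMO STD sample, with replicate 11 inside their range. The log2 fold change was -0.68 (SE 0.233, unadjusted p = 0.00766, adjusted p = 0.719 by edgeR). The call was lost by limma voom with quality weights, at -0.54 (unadjusted p = 0.0170 by limma), below 1.5-fold. Because Myh6 and Myh7 are close paralogs and the counting of shared reads is not given in the sources used here, the split of reads between them is uncertain. Myh6 counts were 1.66 to 2.59 per 100 Myh7 counts in every sample. That ratio averaged 1.95 ± 0.232 in TUMOUR STD (SD, n = 5), 2.29 ± 0.174 in CHEMO STD (SD, n = 6) and 2.13 ± 0.249 in CHEMO FO (SD, n = 8).

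Atp2a2, the pump that returns calcium to its store after contraction, was at 2275, 2059, 1997, 1268 and 1918 CPM in TUMOUR STD replicates 8 to 12, and between 961 (median 1226) and 1492 CPM in CHEMO STD. The highest CHEMO STD sample was below 4 of 5 TUMOUR STD samples and above replicate 11. The log2 fold change of -0.62 (SE 0.204) is a 1.54-fold lower level, with unadjusted p = 0.00588 and adjusted p = 0.719 by edgeR. This change is close to the 1.5-fold threshold, and by limma voom with quality weights it was -0.52 and not called. The call was lost when TUMOUR STD replicate 8 (log2 fold change -0.54), CHEMO STD replicates 1 and 2 (-0.57), CHEMO STD replicate 6 (-0.57) or CHEMO STD replicate 7 (-0.55) was left out, while p stayed at or below 0.0202 in every such fit.

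The essential light chain gene Myl3 and the inhibitory troponin gene Tnni1 came next. Myl3 was at 1242, 1066, 1414, 872 and 1166 CPM in TUMOUR STD and between 623 (median 808) and 1035 CPM in CHEMO STD, log2 fold change -0.53 (SE 0.246, unadjusted p = 0.0433, adjusted p = 0.719 by edgeR). Tnni1 was at 1153, 895, 1059, 642 and 1105 CPM in TUMOUR STD and between 556 (median 680) and 859 CPM in CHEMO STD, log2 fold change -0.51 (SE 0.248, unadjusted p = 0.0502, adjusted p = 0.719 by edgeR). Neither reached 1.5-fold, and both pairs of groups overlapped through TUMOUR STD replicate 11. CHEMO STD replicate 5 was the highest of its group for both. Leaving out either TUMOUR STD replicate 11 or CHEMO STD replicate 5 added both genes to the calls, 5 members in place of 3.

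The other 5 members had log2 fold changes from -0.36 to -0.29 in edgeR, none with p below 0.05. For the calcium sensor Tnnc1 the difference was -0.29 (95% interval -0.73 to 0.15) and for the regulatory light chain Myl2 -0.29 (-0.83 to 0.25). Tnnt1, the tropomyosin-binding troponin, gave -0.36 (-0.82 to 0.10), slow tropomyosin Tpm3 -0.33 (-0.84 to 0.17) and the Z-disc gene Myoz2 -0.36 (-0.91 to 0.20). TUMOUR STD replicate 11 was the lowest of its group for these 5 genes too. Tnnt1, for example, was at 725 CPM there and 791 to 1266 CPM in the other TUMOUR STD samples, against 485 to 982 CPM in CHEMO STD. The intervals include a 1.5-fold lower level for all 5 genes.

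**Figure D1:**
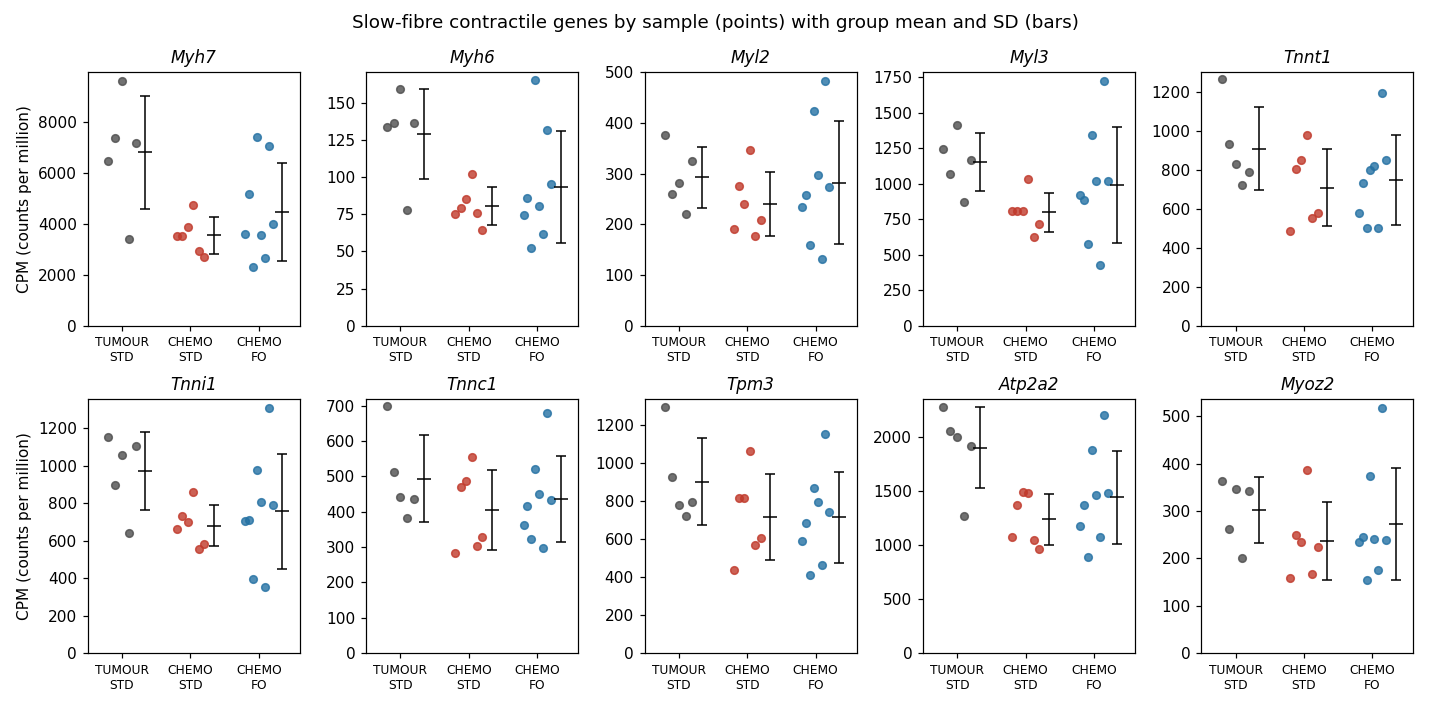
Normalised counts (CPM, y axis from 0) of each slow-fibre gene in every sample (points) of TUMOUR STD (n = 5), CHEMO STD (n = 6, replicates 1 and 2 summed) and CHEMO FO (n = 8), with the group mean and SD as bars. For Myh7, 4 of 5 TUMOUR STD samples lie above all CHEMO STD samples, and CHEMO FO runs from 2323 to 7414 CPM.

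The diet effect, CHEMO FO against CHEMO STD, was the second comparison. No member was called in either direction in edgeR, where 0.615% of all genes tested were called higher, and none was higher at p below 0.05 with all samples, where 2.45% of all genes were. The fitted values of 9 of 10 members were higher in CHEMO FO and that of Tpm3 was lower (log2 fold change -0.0050), with a median of 0.21 over the members and -0.0060 over all genes. Across the whole table no gene passed the adjusted threshold in edgeR, and 528 had an unadjusted p below 0.05. The members' own differences were small beside the spread within CHEMO FO.

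Myh7 ran from 2323 (median 3803) to 7414 CPM in CHEMO FO, a range that holds every CHEMO STD sample. The highest were replicates 16 and 19 at 7414 and 7070 CPM, and the lowest were replicates 15 and 18 at 2323 and 2666 CPM. The mean was 4474 ± 1911 CPM (SD, n = 8), and the log2 fold change against CHEMO STD was 0.33 (95% interval -0.18 to 0.85, unadjusted p = 0.194 by edgeR). Myl3 gave 0.31 (-0.15 to 0.77), Myl2 0.24 (-0.25 to 0.72), Atp2a2 0.22 (-0.16 to 0.60), Myh6 0.21 (-0.22 to 0.65) and Myoz2 0.21 (-0.29 to 0.70). The thin-filament genes were nearer 0, at 0.15 for Tnni1 (-0.31 to 0.61), 0.11 for Tnnc1 (-0.29 to 0.51) and 0.08 for Tnnt1 (-0.33 to 0.49). The intervals of Myh7, Myl3, Myl2, Myh6, Myoz2, Atp2a2 and Tnni1 reach past a 1.5-fold higher level, which these samples therefore do not exclude, whereas those of Tnnt1, Tnnc1 and Tpm3 end below it. In CHEMO FO the coefficient of variation was 40.2% to 43.4% for Myh7, Myh6, Myl2, Myl3, Tnni1 and Myoz2, against 15.9% to 34.8% in CHEMO STD for the same genes. Of the other 4 members, Atp2a2 had 29.8% in CHEMO FO and 19.1% in CHEMO STD. The gap was small for Tnnt1 (30.7% and 27.9%), Tpm3 (33.3% and 31.4%) and Tnnc1 (28.1% and 28.0%). No test of the difference in spread was made.

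CHEMO FO replicate 18 stood apart in other ways. Its normalisation factor was 1.21, against 0.934 to 1.06 in the 18 other samples, and its summed macrophage markers were the highest at 640 CPM, against 139 to 341 CPM in TUMOUR STD and CHEMO STD. Its Myl3 was 425 CPM and its Tnni1 354 CPM, the lowest of all 19 samples for both genes. The fast gene Myh4 was also lowest there, at 61322 CPM. Tnni1 held 7.59% of the Tnni1 and Tnni2 counts in that sample, beside a CHEMO FO mean of 7.67%. Myl3 held 5.87% of the Myl3 and Myl1 counts, beside a CHEMO FO mean of 7.45%. Without it 0 members were called in CHEMO FO against CHEMO STD, as with it, but Myl3 then passed p below 0.05, at a log2 fold change of 0.43 (unadjusted p = 0.0279 by edgeR) in place of 0.31. Myl3 also passed p below 0.05 with all samples by limma voom with quality weights (0.36, unadjusted p = 0.0434 by limma), and was below 1.5-fold in both.

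CHEMO FO was also set against TUMOUR STD, a comparison that the study did not make and that shares its samples with the others. The fitted values of all 10 members were lower in CHEMO FO, with a median log2 fold change of -0.31, against 0.0023 over all genes. In edgeR 1 member was called lower (Myh7), where 2.51% of all genes tested were, and 3 were lower at p below 0.05 (Myh7, Myh6 and Atp2a2), where 5.32% of all genes were. No gene passed the adjusted threshold in edgeR, though 1059 had an unadjusted p below 0.05. Myh7 was 1.52-fold lower, log2 fold change -0.61 (SE 0.258, unadjusted p = 0.0279, adjusted p = 0.524 by edgeR), beside -0.94 in CHEMO STD against TUMOUR STD. Markers of other cell types were lower here too. The summed smooth muscle markers ran from 78.1 to 290 CPM in CHEMO FO, with 5 of 6 lower than in TUMOUR STD and 3 called (Myh11, Acta2 and Tagln). The summed tendon markers ran from 313 to 1086 CPM, with 8 of 8 lower and 3 called, and the part of either list in the slow-fibre values was not tested. Among the other members, Myh6 was at -0.47 beside -0.68, and Atp2a2 at -0.40 beside -0.62. The difference between these effects is the CHEMO FO against CHEMO STD comparison, which called none of them. The Myh7 call was lost (log2 fold changes -0.58 to -0.45) when TUMOUR STD replicate 9, 10 or 12 or CHEMO FO replicate 13, 15, 17, 18 or 20 was left out, and the exact permutation test gave p = 0.0886. When TUMOUR STD replicate 11 or CHEMO FO replicate 16 was left out instead, 2 members were called, Myh7 and Myh6.

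**Figure D2:**
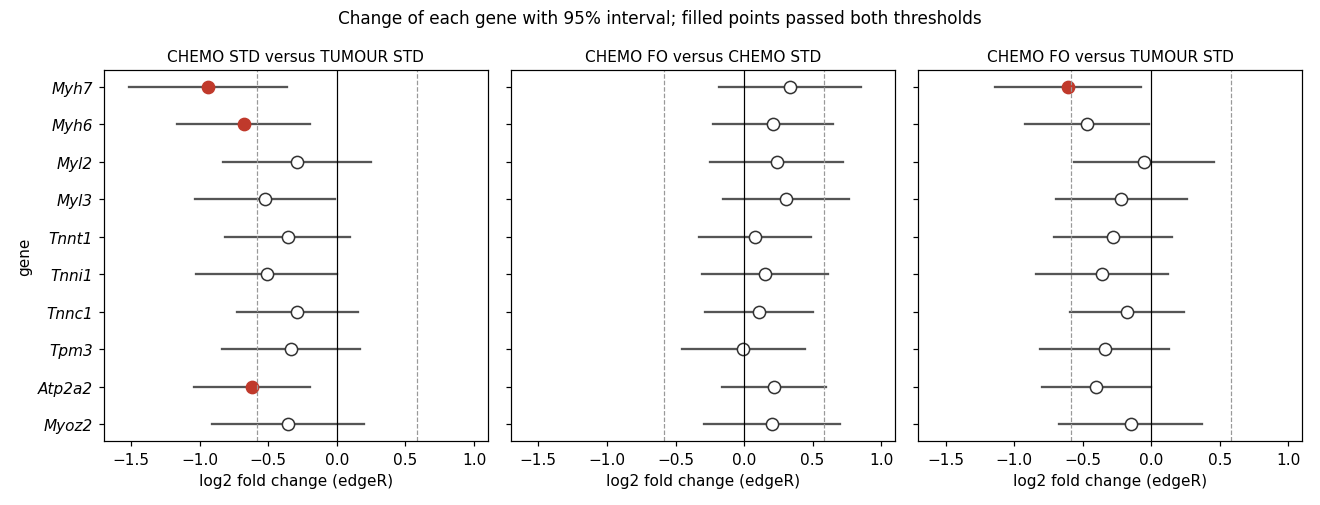
The log2 fold change of each slow-fibre gene (points) with its 95% interval (lines) in edgeR for the 3 comparisons, where filled points were called and dashed lines mark 1.5-fold. All 10 points lie below 0 in CHEMO STD against TUMOUR STD, from -0.94 to -0.29, and no point is filled in CHEMO FO against CHEMO STD.

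Ratios of a slow gene to its fast counterpart in the same sample do not depend on library size. They could be formed for 8 members, all but Myh6, which has no counterpart in the plan, and Atp2a2, whose counterpart was not matched by symbol. Values are the slow gene's share of the pair's counts, which are not corrected for transcript length and so compare samples, not genes. Myh7 held 6.26%, 6.85%, 8.39%, 3.25% and 7.08% of the Myh7 and Myh4 counts in TUMOUR STD replicates 8 to 12, and 2.86% to 5.32% in CHEMO STD. For the light chains, Myl3 held 9.94% ± 2.78 of the Myl3 and Myl1 counts in TUMOUR STD (SD, n = 5) and 5.97% ± 1.30 in CHEMO STD (SD, n = 6). Tnnc1 held 7.87% ± 2.07 of the Tnnc1 and Tnnc2 counts in TUMOUR STD (SD, n = 5) and 5.14% ± 1.12 in CHEMO STD (SD, n = 6).

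The slow share was lower in CHEMO STD for all 8 pairs, and 3 had a two-sided exact permutation p below 0.05. The pairs come from the same samples and their slow genes varied together, so the 8 are not independent. The log2 ratio differed by -0.77 for Myl3 to Myl1 (exact p = 0.0173), by -0.63 for Tnnc1 to Tnnc2 (exact p = 0.0390) and by -0.72 for Myh7 to Myh4 (exact p = 0.0433). None passed after adjustment over 24 tests (exact permutation, adjusted p = 0.312 for all 3). The remaining pairs ran from -0.60 for Tnnt1 to Tnnt3 (exact p = 0.0649) to -0.34 for Myl2 to Mylpf (exact p = 0.299). Leaving out each of the 11 samples in turn kept the exact p of the Myl3 pair at or below 0.0381. The exact p of the Myh7 pair reached up to 0.0952, staying below 0.05 only when TUMOUR STD replicate 11, CHEMO STD replicates 1 and 2 or CHEMO STD replicate 5 was left out. That of the Tnnc1 pair reached up to 0.0857, staying below 0.05 only when TUMOUR STD replicate 11 or CHEMO STD replicate 4 or 5 was left out. In CHEMO FO the share was higher than in CHEMO STD for 8 of 8 pairs and lower than in TUMOUR STD for 8 of 8, with no exact p below 0.05. The fast-fibre list itself, 12 of 15 genes tested, had 0 genes called in each of the 3 comparisons and median log2 fold changes of 0.07, -0.05 and 0.05. Over all 11716 genes tested, 279 were called in CHEMO STD against TUMOUR STD. The number was 195 in CHEMO FO against CHEMO STD and 422 in CHEMO FO against TUMOUR STD.

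**Figure D3:**
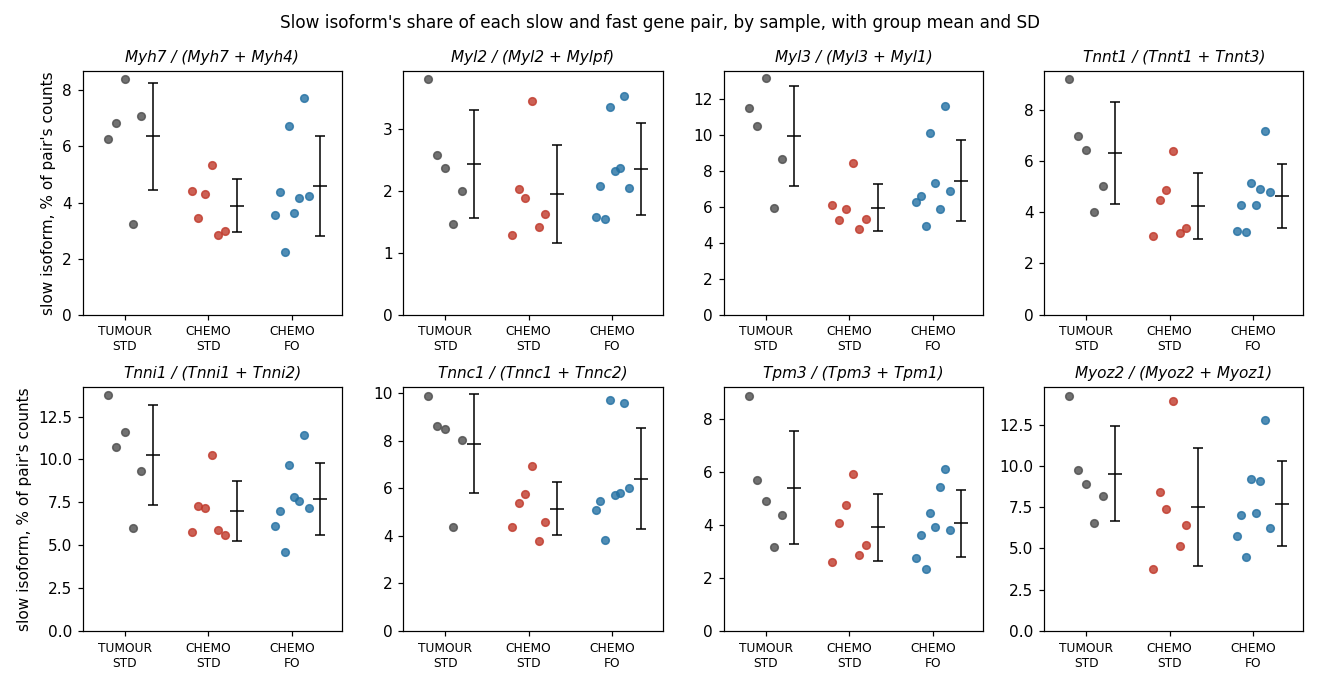
Slow gene's share of the counts of each slow and fast pair in percent (y axis from 0) for every sample (points) with group mean and SD (bars), for TUMOUR STD (n = 5), CHEMO STD (n = 6) and CHEMO FO (n = 8). Myh7 held 2.86% to 5.32% in CHEMO STD, with 4 of 5 TUMOUR STD samples above that range.

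The members varied together from sample to sample within groups. With group means removed from log2 CPM, Myh7 correlated with each of the 9 other members across 19 samples (Pearson r 0.65 to 0.96, Spearman rho 0.58 to 0.91, permutation p of r adjusted over 9 relations from 9e-05 to 0.00455, and of rho from 9e-05 to 0.0144). The smallest p that 100000 permutations can give is 1e-05. Without TUMOUR STD replicate 11 and CHEMO FO replicate 15, the samples farthest from the median of Myh7, r was 0.57 to 0.94. These genes were all read in the same libraries, so they share each library's depth and scaling.

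The correlations formed blocks of genes that were not clearly separated. Of the thin-filament genes, Tnnt1, Tnnc1 and Tpm3 correlated with each other at r = 0.97 to 0.98, and with Myh7 at only 0.65 to 0.68. Tnni1, also of the thin filament, correlated with these at 0.80 to 0.82. Myh7 and Myh6 correlated at 0.96, and with the calcium pump Atp2a2 at 0.88 and 0.91. But Atp2a2 was as close to Tnnt1 (0.88), Tnnc1 (0.89) and Tpm3 (0.88), and Myl2 correlated with these at 0.87 to 0.90. Myl3 and Tnni1 correlated at 0.97, and Myl2 with them at 0.94 and 0.96. Single samples did not divide by these blocks. TUMOUR STD replicate 8 was highest of its group for Tnnt1 (1266 CPM), Tnnc1 (697 CPM) and Tpm3 (1291 CPM), but also for Atp2a2 (2275 CPM), Tnni1 (1153 CPM), Myl2 (377 CPM) and Myoz2 (363 CPM). Replicate 10 was highest for Myh7 (9609 CPM), Myh6 (159 CPM) and Myl3 (1414 CPM). In TUMOUR STD alone Myh7 correlated at r = 0.30 with Tnnt1, 0.31 with Tnnc1 and 0.20 with Tpm3, but over 5 samples that is a description only. TUMOUR STD replicate 10 also had the highest summed markers of keratinocytes (515 CPM, against 2.45 to 8.07 CPM in CHEMO STD) and of tendon (1842 CPM). CHEMO FO replicate 16, the highest of its group for Myh7, was likewise the highest of its group for summed keratinocyte markers (111 CPM, where the group median was 4.05 CPM) and tendon markers (1086 CPM, group median 687 CPM). The part of these markers in the members' values was not tested. Without CHEMO FO replicate 16 the log2 fold change of Myh7 was 0.19 against CHEMO STD and -0.74 against TUMOUR STD.

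**Figure D4:**
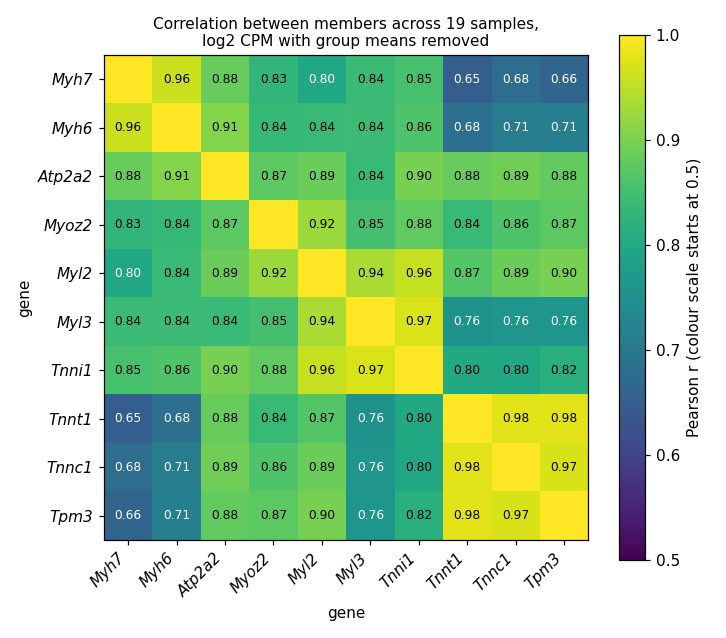
Pearson r between the slow-fibre genes over 19 samples, log2 CPM with group means removed, printed in each cell, with colour from 0.5 to 1. Tnnt1, Tnnc1 and Tpm3 form a block at 0.97 to 0.98, and their correlations with Myh7 are the lowest at 0.65 to 0.68.

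Outside the members, the 5 of 11706 genes whose pattern was most like the members' mean, over 19 samples with group means removed, were AC128207.1 (r = 0.94), AABR07007032.1 (r = 0.93), Ldhb (r = 0.93), Xpo4 (r = 0.90) and Egflam (r = 0.86). Ldhb encodes the heart-type subunit of lactate dehydrogenase and Xpo4 a nuclear transport receptor. Ldhb was at 236 ± 59.7 CPM in TUMOUR STD (SD, n = 5), 174 ± 24.1 in CHEMO STD (SD, n = 6) and 217 ± 72.1 in CHEMO FO (SD, n = 8), with no comparison called. Egflam, which encodes a matrix protein, was lower by log2 fold changes of -0.68 in CHEMO STD (unadjusted p = 0.00355 by edgeR) and -0.72 in CHEMO FO (unadjusted p = 0.00134 by edgeR) against TUMOUR STD, both called.

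The rest of the slow programme was described from a list. Of 16 listed genes outside the contractile set, 14 were tested, and in CHEMO STD against TUMOUR STD 11 were lower and 3 higher with a median of -0.30. In edgeR 3 were called lower, where 1.45% of all genes tested were. These were Myom3, an M-band protein (log2 fold change -0.84), the stretch-responsive Ankrd2 (-0.86) and Pdlim1 (-0.64). Ankrd2 lost its call when TUMOUR STD replicate 10 was left out (-0.65), and Pdlim1 when that sample (-0.45) or CHEMO STD replicate 6 (-0.58) was. By limma voom with quality weights Pdlim1 was not called either. In CHEMO FO against CHEMO STD 7 were higher, 7 lower and 0 called, where 0.615% of all genes were called higher. When CHEMO STD replicate 5 was left out, 2 of the list were called higher, Cryab (0.65) and Ankrd2 (0.81). Against TUMOUR STD in CHEMO FO 9 were lower and 1 was called lower, Myom3 (-0.61), where 2.51% of all genes were. Myom3 lost its call when TUMOUR STD replicate 9 or 10 or CHEMO FO replicate 13, 15, 17 or 18 was left out. By limma voom with quality weights Myom3 was not called there, while Pln (-0.95) and Csrp3 (-0.83) were. In edgeR the count rose to 3 without TUMOUR STD replicate 11 (Pdlim1 and Myh7b added) or replicate 12 (Pln and Myh7b added), and to 2 without CHEMO FO replicate 16 or 19 (Pdlim1 added). Myom3 ran from 111 to 235 CPM in TUMOUR STD and from 76.0 to 142 CPM in CHEMO STD, and followed the members with r = 0.82.

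Known regulators of the slow programme were read from 2 further lists. Of 15 genes tested from the activator list, which also holds the calcineurin-responsive gene Rcan1, 7 were higher and 8 lower in CHEMO STD against TUMOUR STD. Their median was -0.04. The only one called was Prox1, a homeobox factor that promotes slow gene expression, where 1.45% of all genes tested were called lower. Prox1 was lower by a log2 fold change of -0.88 (SE 0.235, unadjusted p = 0.00108, adjusted p = 0.719 by edgeR). It was at 11.6, 14.9, 12.6, 7.60 and 11.7 CPM in TUMOUR STD replicates 8 to 12 and at 4.90 to 8.52 CPM in CHEMO STD. As with Myh7, 4 of 5 TUMOUR STD samples were above every CHEMO STD sample and replicate 11 was inside their range. Without CHEMO STD replicate 5 a second activator, Esrrg, was called lower as well (-0.64). Prox1 was also called lower in CHEMO FO against TUMOUR STD (-0.65), where 2.51% of all genes tested were called lower. That Prox1 call was lost when TUMOUR STD replicate 9 or CHEMO FO replicate 17 or 18 was left out. Without TUMOUR STD replicate 10 Esrrg was again added (-0.67). The counts of Prox1 were low, 16 to 150 per sample. Rcan1, a calcineurin-responsive gene, was called higher in CHEMO FO against CHEMO STD (1.07), where 0.615% of all genes tested were called higher. But 1 sample, CHEMO FO replicate 18 at 612 CPM, decided the Rcan1 call, since without that sample the value was 0.46 and not called. When CHEMO STD replicates 1 and 2 were left out, Ppard was called higher beside Rcan1 (0.62). Rcan1 was also called higher in CHEMO FO against TUMOUR STD (0.99), where 128 of 11716 genes were called higher. Without CHEMO FO replicate 18 that value was 0.38 and not called. That call was lost also when TUMOUR STD replicate 9, 11 or 12 or CHEMO FO replicate 19 was left out. Limma voom with quality weights did not make that call, and neither did edgeR fitted on only the 2 groups compared. The list of fast-programme factors and slow repressors, 9 of 10 tested, had 0 called in each of the 3 comparisons. Over all 11716 genes, 279 were called in CHEMO STD against TUMOUR STD. The number was 195 in CHEMO FO against CHEMO STD and 422 in CHEMO FO against TUMOUR STD. In CHEMO STD against TUMOUR STD 1 gene of this list, Nfix, was called lower when TUMOUR STD replicate 8 (log2 fold change -0.68) or CHEMO STD replicates 1 and 2 (-0.63) were left out, beside -0.53 with all samples.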

How the data were processed

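RNA was sequenced from gastrocnemius as stranded, rRNA-depleted libraries. The authors trimmed the reads with Trim Galore 0.4.1, aligned them with TopHat2 2.0.10 and Bowtie2 to the rat genome Rnor 6, counted them on Ensembl genes and deposited unnormalised counts per gene. How reads shared by several genes were counted is not given in the sources used here. In 2 libraries, TUMOUR STD replicates 9 and 10, the deposited count of Myh4 is rounded. The 388 rows without a gene name were left out (0.102% to 0.272% of a library's counts).

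CHEMO STD replicates 1 and 2 were summed. Genes kept by the filterByExpr function of edgeR (at least 10 counts in enough samples and 15 in all) were scaled by TMM and fitted over all 3 groups with the quasi-likelihood test of edgeR 4.0.16 in R 4.3.3, with Benjamini-Hochberg adjustment over all genes tested. CPM uses TMM library sizes, and log2 CPM a prior count of 2. Slow and fast ratios and single members were tested by two-sided exact permutation (SciPy 1.17.1, Python 3.11.15) and correlations by permuting samples within groups. The slow and fast pairs were to be 9, but 8 could be formed, since Atp2a1 was not matched by symbol. Myh1 and Myh2 were not matched either, so Myh7 was set against Myh4 alone.

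Beyond the members, genes are named by rule: the fast counterpart where a ratio is described, called genes of the slow and fast programme lists, the 5 genes most like the members, and markers at the top of their list or at 0. Egflam's calls, and listed genes called only when a sample was left out, were looked up afterwards. The members and lists were chosen with earlier results of these data known, and the call thresholds are those of the study's methods. The edgeR fit was also run on a simulation holding 200 genes with a 2-fold change. The results follow for CHEMO STD against TUMOUR STD, CHEMO FO against CHEMO STD and CHEMO FO against TUMOUR STD, in that order. The fit recovered 95%, 93.5% and 92% of the changed genes. It also falsely called 261, 195 and 194 genes, beside 279, 195 and 422 genes called in the measured data. A call by itself is therefore weak evidence of a change. Alternatives were DESeq2 1.42.0, voom with quality weights (limma 3.58.1), other scaling, filters and fold thresholds, other handling of replicates 1 and 2, only the groups compared, and each sample left out. Intervals on counts were not used, since the spread between samples was. Promoters came from RefSeq (GRCr8), for 8 of 10 members. Figures were drawn with matplotlib 3.10.9.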

Additional observations from a re-analysis of the deposited data

Results flagged for a closer look

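Myh6 in TUMOUR STD replicate 11 lay far below the other samples of its group. Its log2 CPM was 6.28, against 7.07 to 7.32 in the 4 others, and the gap to the nearest of them was 0.755 of the group's whole range, over the Dixon critical value of 0.71 for 5 samples. It was the only one of 30 checks of a member in a group to pass, and chance passes about 1 in 20 of such checks. Without that sample, the log2 fold change of Myh6 in CHEMO STD against TUMOUR STD was -0.82, beside -0.68 with it.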

How the results depend on the processing

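In CHEMO STD against TUMOUR STD all members stayed lower under every alternative, and the count called (3) stayed within 2 to 5 when each sample was left out (5 for TUMOUR STD 11 or CHEMO STD 5). Voom with quality weights called 1 member there (Myh7) and 0 in CHEMO FO against TUMOUR STD (log2 fold change of Myh7 -0.41). In CHEMO FO against TUMOUR STD the count (1) was 3 with no fold threshold and 3 at a lower fold threshold, and 0 to 2 when each sample was left out. In CHEMO FO against CHEMO STD 0 members were called under every alternative.

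Directions that turned were all near 0 in comparisons with CHEMO FO. Against CHEMO STD, Tpm3 was 0.0030 without the filter and 0.083 with replicates 1 and 2 separate, and Tnnt1 was -0.0086 with both left out. The ratios of Tpm3 to Tpm1 and Myoz2 to Myoz1 were then -0.057 and -0.088. Against TUMOUR STD, Myl2 was 0.024 by voom. Leaving out each sample gave, against CHEMO STD, -0.055 to 0.19 for Tnnt1, -0.012 to 0.26 for Tnni1, -0.014 to 0.22 for Tnnc1 and -0.14 to 0.14 for Tpm3, with ratios up to 0.19 for Tpm3 to Tpm1 and 0.32 for Myoz2 to Myoz1 and, without CHEMO FO 19, at -0.046 and -0.026. Against TUMOUR STD it gave -0.21 to 0.066 for Myl2, with a ratio to Mylpf from -0.21 to 0.14. The causes were not tested.

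No paired analysis was possible because the groups share no replicate numbers, which run from 1 to 20 over all libraries. With 5 to 8 samples a group, no member's difference passed the adjusted threshold, and the depth of 3020821 counts or more leaves at least 208 counts of the least counted member.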

Other observations

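Esrrg and Pln were picked out of the slow-programme lists after their values were seen. Esrrg, a nuclear receptor of oxidative metabolism, ranked 11 of 11706 genes in its likeness to the members' mean across 19 samples with group means removed (r = 0.81), although no comparison called it with all samples. It was at 21.7 ± 6.59 CPM in TUMOUR STD (SD, n = 5), 17.5 ± 8.79 in CHEMO STD (SD, n = 6) and 15.1 ± 6.30 in CHEMO FO (SD, n = 8). Pln, whose product phospholamban inhibits the Atp2a2 pump, was at the opposite end, rank 11691 with r = -0.69, but it had only 3 to 39 counts per sample, so its order among samples rests on few reads.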
